A study of Anas platyrhynchos with 5 samples.

Results

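White feather bulbs of Kaiya-Liancheng F2 ducks were compared with white bulbs of both breeds of that cross, miRNA by miRNA. A feather bulb is the base of the feather follicle, where keratinocytes multiply around a dermal core and, in coloured feathers, melanocytes hand over pigment. The comparison takes 3 of the 5 small RNA libraries of the series, chosen by their labels. The white F2 library came from bulbs of Kaiya-Liancheng F2 ducks whose plumage is labelled white-black, while the Kaiya and Liancheng libraries came from ducks labelled pure white. The other libraries, from black bulbs of Kaiya-Liancheng F2 ducks with the same white-black label and from black bulbs of Cui Hei ducks labelled pure black, are set beside these only as values. All ducks were 12 months old. Per the series' design text 3 bulbs were pooled per duck and the ducks of a breed then went into 1 library, so each group is a single pooled library and no difference here has a replicate check. How many birds entered a pool is not stated, nor whether any bird of the breed pools was a parent of the F2 ducks, nor whether the same F2 ducks gave both colours of bulb.

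miRNAs are short RNAs that guide silencing proteins to messenger RNAs, mainly through their seed, bases 2 to 8 from the 5′ end. A hairpin precursor yields a 5p and a 3p arm. One arm usually accumulates more than the other, and the rarer one is often called the passenger strand. Feather bulbs hold epithelial, dermal, blood and nerve-derived cells. Several miRNAs are known marks of such cells, for example miR-205 of epithelium, miR-144 of red blood cells and miR-204 of pigmented cells of the eye. In a bulk library fewer cells of a type and less of the RNA per cell cannot be told apart.

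The sequences that the results turn on are given here as the deposited tables list them, 5′ to 3′, with the seed in capitals. Some hairpins in the tables have no family number, and 5 arms of these are called unnumbered arms A to E. The first set lay below both breeds in the white F2 library.
miR-196-1,2,3-5p: uAGGUAGUuucauguuguuggga
miR-214-5p: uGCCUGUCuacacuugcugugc
miR-29c-3p: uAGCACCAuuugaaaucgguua
miR-26a-5p: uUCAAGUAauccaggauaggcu
miR-106-2,3-5p: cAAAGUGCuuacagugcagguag
unnumbered arm A (5p): uUCCAGUCcauguaccaucagu
unnumbered arm B (3p): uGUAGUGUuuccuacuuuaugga
unnumbered arm C (5p): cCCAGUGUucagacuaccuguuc

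The second set lay above both breeds, apart from miR-125b-5p and miR-30e-2-5p, which are shown because their partner arms did so while they lay below both.
miR-499-5p: uUAAGACUuguagugauguuu
miR-125b-3p: aCAAGUCAggcucuugggacc
miR-125b-5p: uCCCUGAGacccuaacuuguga
miR-30e-2-3p: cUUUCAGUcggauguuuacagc
miR-30e-2-5p: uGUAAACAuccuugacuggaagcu
miR-146b-1,2-5p: uGAGAACUgaauuccauggacug
miR-148a-3p: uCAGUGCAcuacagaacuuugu
miR-27b-3p: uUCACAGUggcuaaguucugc
unnumbered arm D (5p): gAGGGUCUgcagauuucagcc
unnumbered arm E (3p): uGAAAUGUuuaggaccacuug

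The third set had the widest gaps between the breeds and lay between them in the white F2 library, together with miR-10b-1-5p, which carries the same seed as miR-10b-2-5p and differs from it by 1 substitution, A12U, counted from the 5′ end of miR-10b-1-5p.
miR-2188-5p: aAGGUCCAaccucacauguccu
miR-144-5p: cGAUAUCAucguauacuguaagu
miR-144-3p: uACAGUAUagaugauguacucc
miR-10b-2-5p: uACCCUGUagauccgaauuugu
miR-10b-1-5p: uACCCUGUagaaccgaauuugu
miR-460a-5p: cCUGCAUUguacacacugugugu
miR-6564-3p: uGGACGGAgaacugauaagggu
miR-21-5p: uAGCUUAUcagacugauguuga

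With each mature name taken once, the depth was 2843291 reads in the white F2 library, 4269854 in Kaiya and 1601329 in Liancheng. Of 134 mature names, 108 had at least 50 reads in these libraries together and were compared. They held 99.99% of the white F2 reads. Of the rest, 24 fell short of 50 reads, and 2, the arms of 1 hairpin, are not listed in the Kaiya table. Epithelial miR-205b-5p, a check on the labelled tissue, took 7.40% of the reads in white F2, 8.49% in Kaiya and 7.36% in Liancheng. Levels are given as CPM, the authors' raw counts scaled to a common total after TMM scaling over the 3 libraries, and intervals are exact 95% intervals that cover counting error only.

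The white F2 level lay outside the range of both breeds more often than between them. It was above both for 36 of the 108 miRNAs (33.3%), below both for 38 (35.2%) and between them for 34 (31.5%). The middle place was thus held by white F2 for 34 miRNAs, by Kaiya for 42 and by Liancheng for 32. Each library lay outside the range of the others more often than between them, so this is not particular to white F2. Most distances were small, with a median of 0.25 on the log2 scale to the nearer breed for the 74 miRNAs outside. The counting interval of the ratio to the nearer breed excluded 0 for 26 of those above (24.1% of all) and 22 of those below (20.4%), and for 26 it did not. A log2 distance of 0.5 or more was reached by 12 miRNAs, 6 above and 6 below. The size of 1 was reached by 0 above (0%) and by 1 below (0.926%), miR-196-1,2,3-5p. Upper-quartile scaling, which raised the median white F2 to Liancheng ratio by 0.22, gave 46 above and 24 below. The 12 beyond 0.5 were on the same side of both breeds under all 5 other scalings tried.

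Set against each breed alone, the white F2 library differed by a log2 ratio of 1 or more in few miRNAs. Relative to Kaiya 4 were higher (3.7%), namely miR-499-5p, miR-6564-3p, miR-460a-5p and miR-6595-3p. The same number were lower (3.7%), namely miR-10b-2-5p, miR-196-1,2,3-5p, miR-10b-2-3p and miR-2188-5p. Relative to Liancheng 8 were higher (7.41%), among them both arms of mir-2188 and mir-144 and miR-125b-3p. Lower than in Liancheng were 2 (1.85%), miR-196-1,2,3-5p and miR-29c-3p. The breeds themselves were this far apart in 14 miRNAs (13%). The SD of the log2 ratio over the 108 miRNAs was 0.565 for white F2 over Kaiya, 0.626 for white F2 over Liancheng and 0.764 for Kaiya over Liancheng. The median absolute ratio ran the other way with the main TMM scaling, at 0.370, 0.360 and 0.311. These medians lie close together and were not recomputed with other scalings. Upper-quartile scaling raised the median white F2 to Liancheng ratio by 0.22, so the order of the medians may depend on the scaling.

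**Figure D1:**
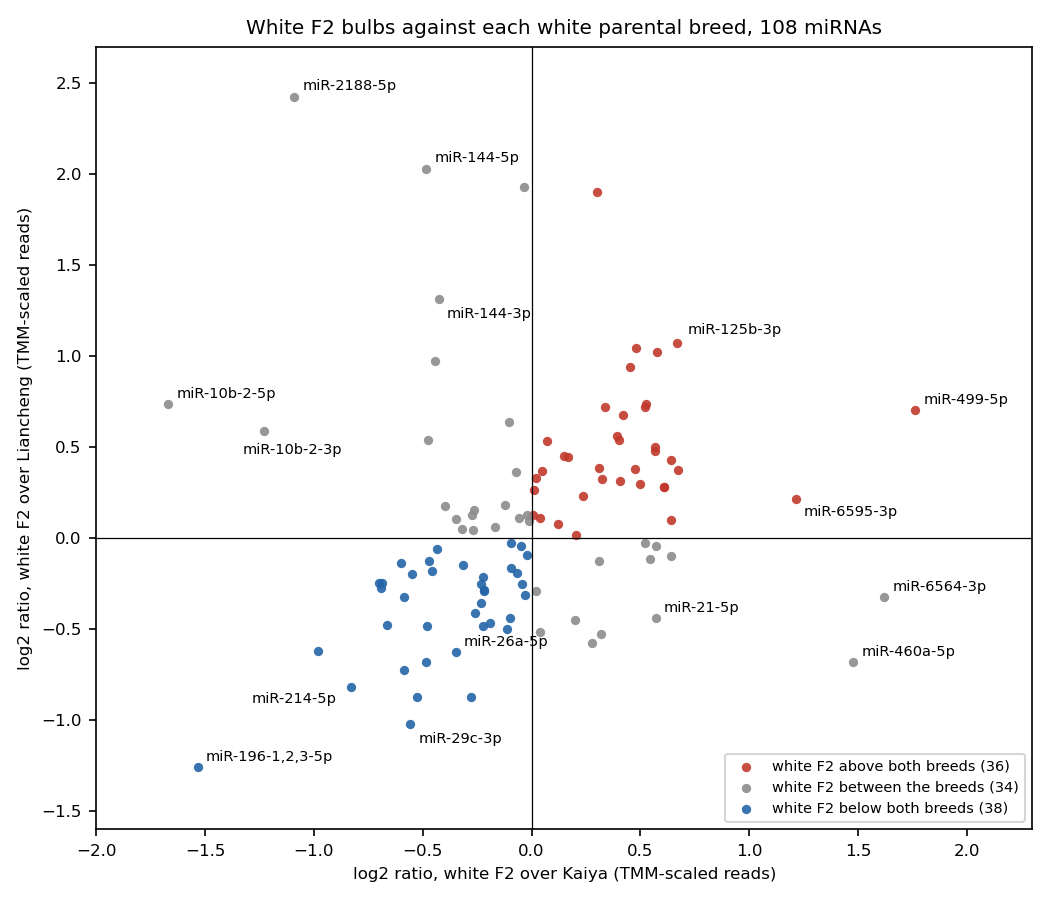
Each point is 1 of 108 miRNAs, by the log2 ratio of white F2 over Kaiya (x) and of white F2 over Liancheng (y), from TMM-scaled reads of 1 library each. Points in the upper right lie above both breeds (36), points in the lower left below both (38), and points in the other corners between them (34), where miR-2188-5p, miR-144-5p, miR-10b-2-5p, miR-460a-5p and miR-6564-3p are farthest out.

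The farthest from both breeds was miR-196-1,2,3-5p, a miRNA encoded within the HOX clusters that is known to repress HOX genes in mice. It stood at 1826 CPM in white F2, 5293 CPM in Kaiya and 4373 CPM in Liancheng. These levels rest on 5094, 21204 and 7608 reads in the same order. The log2 ratio was -1.54 to Kaiya (interval -1.58 to -1.49) and -1.26 to Liancheng (-1.31 to -1.21), so Kaiya was 2.90-fold and Liancheng 2.39-fold higher than white F2. Both breeds were close to each other, and the white F2 library stood apart on the low side. With all 5 libraries scaled together it was at 1833 CPM in white F2, 3521 CPM in black F2, 5039 CPM in Cui Hei, 5451 CPM in Kaiya and 4610 CPM in Liancheng, the white F2 level being the lowest of the 5 and the black F2 level the next. Its ratio to the nearer breed ranged from -1.04 to -1.41 over the other scalings. The deposited name carries the copy numbers 1,2,3, but a single mir-196 hairpin is listed, so reads of any copies cannot be told apart.

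Other miRNAs below both breeds belonged to the dermal mesenchyme list (miR-22, miR-29, miR-214 and related families, known from fibroblasts and the dermal papilla). All lists hold deposited names only, so families deposited under another name or without a number are not counted. By name, 0 of 5 members lay above both, 3 below and 2 between, beside 33.3%, 35.2% and 31.5% of all 108 miRNAs. Of the 3 below, 2 are the arms of mir-214. The list's median log2 ratio to the midpoint of the breeds was -0.35, against 0.03 for all 108. miR-214-5p was at 50.9 CPM in white F2 (42.9 to 60.0), 90.4 CPM in Kaiya (81.3 to 100.2) and 89.7 CPM in Liancheng (76.2 to 104.9), a log2 ratio of -0.83 and -0.82. The intervals of white F2 and of each breed did not overlap. miR-29c-3p, known in mammals to target collagen messages, was at 119.8 CPM in white F2, 176.5 CPM in Kaiya and 243.2 CPM in Liancheng, at -0.56 and -1.02. The partner arm miR-214-3p had 231 CPM in white F2, 270.3 CPM in Kaiya and 323 CPM in Liancheng. White F2 was the lowest library in all of these. The abundant miR-22-3p of the same list was between the breeds, at 57926 CPM in white F2, 57183 CPM in Kaiya and 70887 CPM in Liancheng. With all 5 libraries scaled together white F2 was just below Kaiya in that miRNA. In black F2 and Cui Hei miR-214-5p was at 78.4 and 91.4 CPM and miR-29c-3p at 186 and 168.8 CPM.

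Among the growth-linked families, the miR-17-92 and related list is known from dividing cells. Neither miR-17 nor miR-92 is listed by name, and arms under other names were not matched by sequence. By name, 0 of 8 members lay above both breeds, 5 below and 3 between. The list's median was -0.25 beside 0.03 for all 108 miRNAs, of which 35.2% were below. With upper-quartile scaling 3 were below and 5 between, at a median of -0.12. The names miR-106-2,3-3p and miR-106-3-3p, 2 of the 5, share the same reads. miR-106-2,3-5p had 371 CPM in white F2, 558 CPM in Kaiya and 466 CPM in Liancheng (log2 ratios -0.59 and -0.33). miR-106-1-5p, with the same seed and the substitution A1C between them, had 99.3 CPM in white F2, 145.3 CPM in Kaiya and 113.8 CPM in Liancheng. White F2 was thus lowest in both copies, the second within counting error of Liancheng. The other members below both, miR-106-3p, miR-106-2,3-3p and miR-106-3-3p, were also within counting error of the nearer breed. miR-18a and miR-19a, of the same clusters in mammals, lay between the breeds.

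The abundant miR-26a-5p was also below both, at 49179 CPM in white F2, 62619 CPM in Kaiya and 76025 CPM in Liancheng (-0.35 and -0.63). miR-187-3p had 34.1 CPM in white F2, 51.2 CPM in Kaiya and 56.3 CPM in Liancheng (-0.59 and -0.73). miR-190-5p had 34.8 CPM in white F2, 48.7 CPM in Kaiya and 55.8 CPM in Liancheng (-0.48 and -0.68). White F2 was the lowest of the 3 libraries in each. Among the unnumbered arms, A had 26.5 CPM in white F2, 52.4 CPM in Kaiya and 40.8 CPM in Liancheng. B had 52.3 CPM in white F2, 82.9 CPM in Kaiya and 73.0 CPM in Liancheng. C, the most abundant of them, had 1482 CPM in white F2, 2065 CPM in Kaiya and 2068 CPM in Liancheng, a log2 ratio of -0.48 to each. The breeds agreed on C to within 0.01 on the log2 scale, and white F2 stood below both.

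On the high side miR-499-5p was farthest out. In mammals it lies within a myosin heavy chain gene and marks muscle. It stood at 70.3 CPM in white F2 (60.8 to 80.8), 20.7 CPM in Kaiya (16.5 to 25.7) and 43.1 CPM in Liancheng (33.9 to 54.0). White F2 was 3.39-fold above Kaiya and 1.63-fold above Liancheng, and no pair of the intervals overlapped. It was the only muscle list member over the minimum, miR-499-3p having too few reads, and neither miR-1, miR-133 nor miR-206 is listed by name. In black F2 it was at 56.9 CPM and in Cui Hei at 40.5 CPM.

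The 3p arm of mir-125b, the passenger strand of a hairpin known from hair follicle stem cells in mice, stood at 2745 CPM in white F2, 1727 CPM in Kaiya and 1303 CPM in Liancheng. Its log2 ratio was 0.67 to Kaiya (0.62 to 0.72) and 1.07 to Liancheng (1.01 to 1.14). White F2 was above both, with black F2 at 1868 CPM and Cui Hei at 1550 CPM. By contrast, miR-125b-5p, the main strand, was at 4851 CPM in white F2, 6560 CPM in Kaiya and 5057 CPM in Liancheng, just below both (-0.44 and -0.06). Its place relative to Liancheng changed with at least 1 of the other scalings.

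Abundant miRNAs above both breeds were led by miR-146b-1,2-5p, known in mammals as part of a feedback loop on NF-kappaB signalling. It had 89958 CPM in white F2, 62527 CPM in Kaiya and 54017 CPM in Liancheng, which is 8.82% of the white F2 reads, 5.87% of the Kaiya reads and 5.87% of the Liancheng reads. The log2 ratio was 0.52 to Kaiya and 0.74 to Liancheng. Its partner arm, miR-146b-2-3p, was between the breeds at 112.2 CPM in white F2, 113.8 CPM in Kaiya and 102.9 CPM in Liancheng. The place of the partner arm was within counting error of both breeds, and it was above both with upper-quartile scaling. Black F2 had 66711 CPM and Cui Hei 50372 CPM of the 5p arm.

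miR-148a-3p, whose human counterpart targets the pigment cell factor MITF, was at 38394 CPM in white F2, 25880 CPM in Kaiya and 27120 CPM in Liancheng (0.57 and 0.50). The other arm, miR-148a-5p, had 515 CPM in white F2, 365 CPM in Kaiya and 419.6 CPM in Liancheng (0.50 and 0.30), so both arms lay above both breeds. Unnumbered arm E was similar in size, at 38422 CPM in white F2, 24614 CPM in Kaiya and 28540 CPM in Liancheng (0.64 and 0.43). Among rarer ones, unnumbered arm D had 76.0 CPM in white F2, 54.4 CPM in Kaiya and 36.8 CPM in Liancheng. miR-2131-3p had 49.1 CPM in white F2, 32.9 CPM in Kaiya and 24.1 CPM in Liancheng. miR-1552-3p had 85.0 CPM in white F2, 57.4 CPM in Kaiya and 60.9 CPM in Liancheng. All were highest in white F2 of the 3 libraries. So was the abundant miR-367-3p, by little, at 43223 CPM in white F2, 41768 CPM in Kaiya and 33479 CPM in Liancheng.

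The miR-23b and miR-27b list, members of a cluster in vertebrates, had 3 of 3 members above both breeds, at a median log2 ratio of 0.47 to the midpoint of the breeds, beside 33.3% above and a median of 0.03 for all 108. Of the 3, 2 are arms of mir-27b, and with library size alone 2 were above and 1 between. miR-27b-3p had 59834 CPM in white F2, 45344 CPM in Kaiya and 41120 CPM in Liancheng (0.40 and 0.54). Its partner miR-27b-1,2-5p had 875 CPM in white F2, 640 CPM in Kaiya and 456 CPM in Liancheng (0.45 and 0.94). miR-23b-3p, the one whose place changed, was 0.08 above the nearer breed, at 1445 CPM in white F2, 1326 CPM in Kaiya and 1372 CPM in Liancheng. The miR-181 and miR-26 list had 4 of 5 members above and 1 below (3 above with library size alone). Of all 108 miRNAs, 33.3% were above and 35.2% below. Of the 4 above, miR-26a-3p, on 37 reads in white F2, and miR-181b-1-3p were within counting error of the nearer breed. The abundant miR-181b-1,2-5p was at 79501 CPM in white F2, 67418 CPM in Kaiya and 67624 CPM in Liancheng.

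**Figure D2:**
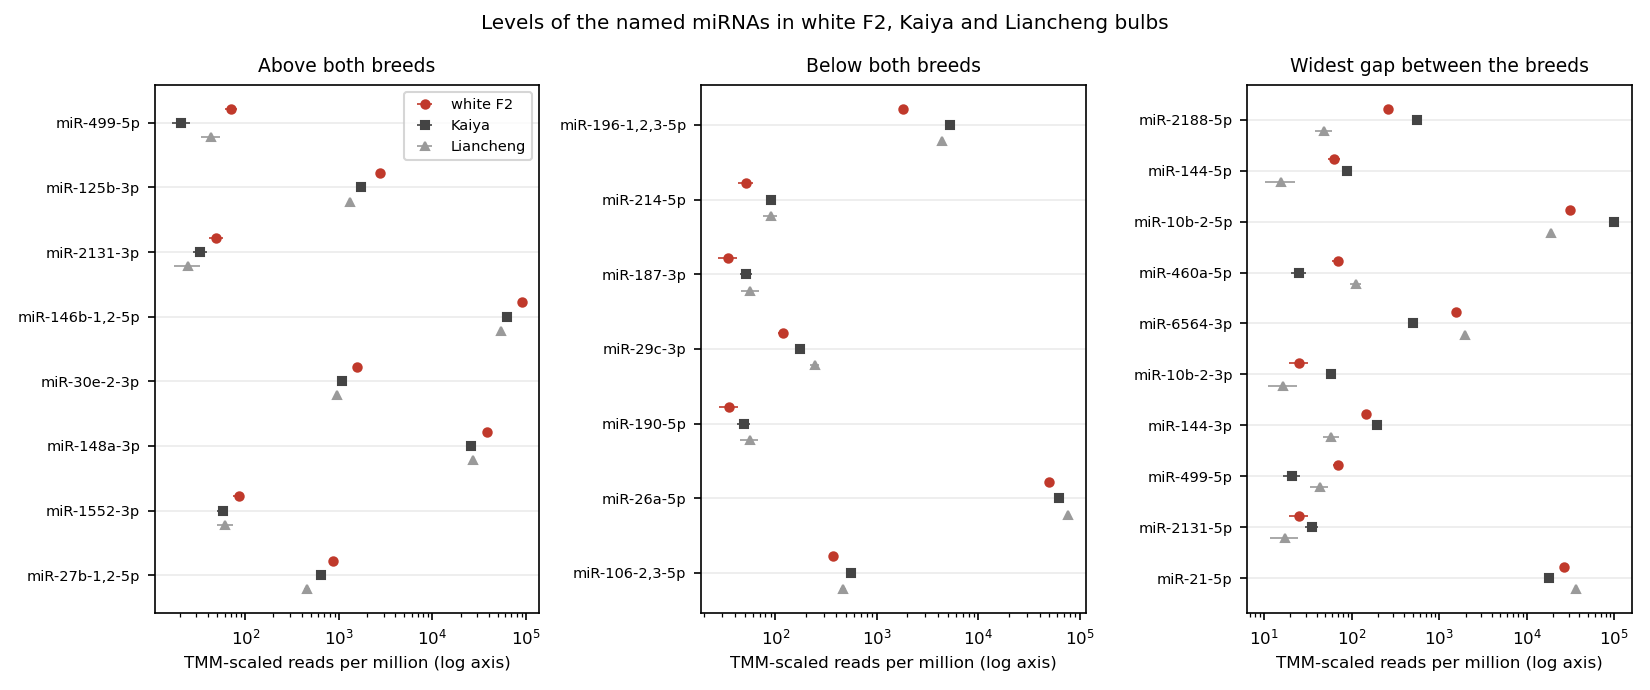
Levels in TMM-scaled CPM (log axis) of the named miRNAs with a family number in white F2 (circles), Kaiya (squares) and Liancheng (triangles), 1 library each, with exact 95% Poisson intervals as bars. White F2 lies right of both breeds in the left panel and left of both in the middle one, while in the right panel it lies between them for all but miR-499-5p.

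Where the breeds differed most, white F2 mostly lay between them. Of the 14 miRNAs with a Kaiya to Liancheng log2 ratio of at least 1 in size, 11 (78.6%) were between the breeds in white F2 and 3 above both (miR-499-5p, miR-6595-3p and miR-193b-5p). The rare miR-193b-5p was within counting error of Kaiya. Of the other 94 miRNAs 23 (24.5%) were between. By gap, 0 of 19 were between at under 0.1, 4 of 31 at 0.1 to 0.3, 9 of 31 at 0.3 to 0.5, 10 of 13 at 0.5 to 1 and 11 of 14 at 1 or more. A wider gap leaves more room between the breeds, so a larger count there follows in part from the gap itself. Of the 11, 6 were nearer to Kaiya and 5 nearer to Liancheng, and the median place was 53.1% of the log2 distance from Liancheng to Kaiya.

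miR-2188-5p had the widest gap. It stood at 259.6 CPM in white F2, 553 CPM in Kaiya and 48.3 CPM in Liancheng. White F2 was 1.09 below Kaiya and 2.43 above Liancheng on the log2 scale, 69.0% of the way from Liancheng to Kaiya. Its partner miR-2188-3p, on 9 reads in Liancheng, had 19.7 CPM in white F2, 20.2 CPM in Kaiya and 5.17 CPM in Liancheng. Both arms were low in Liancheng, and white F2 sat on the Kaiya side in each.

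miR-144, which in vertebrates is made in red blood cells, showed the same order in both arms. miR-144-5p had 63.5 CPM in white F2, 88.9 CPM in Kaiya and 15.5 CPM in Liancheng, 80.7% of the way from Liancheng to Kaiya. miR-144-3p had 145.6 CPM in white F2, 195.7 CPM in Kaiya and 58.6 CPM in Liancheng, 75.4% of the way. The erythroid list holds only these 2 measured names, and the part of red cell RNA in other results was not tested. Black F2 and Cui Hei were higher still in miR-144-3p, at 297 and 360 CPM.

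miR-10b-2-5p had a gap of 2.41 between the breeds. Like miR-196 it belongs to a family encoded in the HOX clusters. It stood at 31449 CPM in white F2, 100133 CPM in Kaiya and 18883 CPM in Liancheng, that is 3.08%, 9.40% and 2.05% of the reads in that order. White F2 was nearer to Liancheng, at 30.6% of the way to Kaiya (log2 ratios of -1.67 to Kaiya and 0.74 to Liancheng). The passenger arm miR-10b-2-3p gave nearly the same place, 32.4%, at 25.1 CPM in white F2, 58.9 CPM in Kaiya and 16.7 CPM in Liancheng. The similarly named miR-10b-1-5p, the most abundant miRNA, had 141910 CPM in white F2, 186778 CPM in Kaiya and 125488 CPM in Liancheng. It was also between the breeds, at 30.9%. Whether the 2 hairpins are copies of 1 gene was not tested. Since the 2 sequences differ by A12U alone, how reads with an error at that base were split is uncertain. The HOX-encoded list as a whole had 0 of 5 members above, 2 below and 3 between, beside 33.3%, 35.2% and 31.5% of all 108 miRNAs. Of the 2 below, miR-10b-1-3p was within counting error of both breeds, on 45 reads in white F2, 76 in Kaiya and 36 in Liancheng. Black F2 had 15025 CPM of miR-10b-2-5p and Cui Hei 43557 CPM.

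In the other direction, miR-460a-5p had 69.6 CPM in white F2, 24.96 CPM in Kaiya and 111.5 CPM in Liancheng. miR-6564-3p had 1560 CPM in white F2, 507 CPM in Kaiya and 1952 CPM in Liancheng, 16.6% of the way from Liancheng to Kaiya. miR-21-5p, raised in many growing and injured tissues, had 26807 CPM in white F2, 18062 CPM in Kaiya and 36371 CPM in Liancheng. These were higher in Liancheng, with white F2 in between and, for miR-6564-3p, close to Liancheng. All 3 members of the miR-21 and miR-460 list lay between the breeds. miR-6595-3p, at 27124 CPM in white F2, 11698 CPM in Kaiya and 23398 CPM in Liancheng, was 0.21 above Liancheng and 1.21 above Kaiya. The rare miR-2131-5p had 25.1 CPM in white F2, 34.9 CPM in Kaiya and 17.2 CPM in Liancheng, from 70, 140 and 30 reads.

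**Figure D3:**
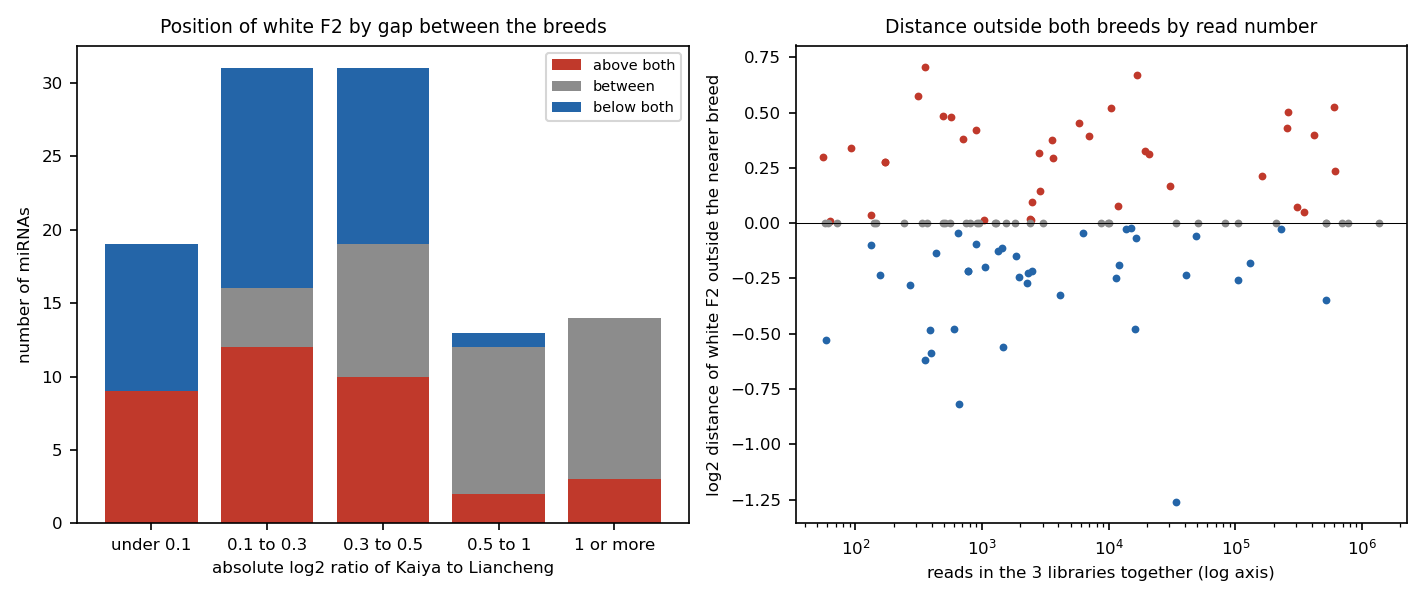
Left, number of miRNAs with white F2 above both breeds, between them or below both, by the absolute log2 ratio of Kaiya to Liancheng. Right, log2 distance of white F2 outside the nearer breed (0 when between) against the reads in the 3 libraries together (log axis). The share between climbs with the gap, to 11 of 14 at the widest, and the largest distance, -1.26, is that of miR-196-1,2,3-5p.

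Of the miRNAs linked to pigment cells, 6 of the 12 over the minimum lay above both breeds, 4 below and 2 between, beside 33.3%, 35.2% and 31.5% of all 108. With upper-quartile scaling 6 were above, 1 below and 5 between. Their median log2 ratio to the midpoint was 0.05, near that of all miRNAs. miR-204-5p, the member that is high in black bulbs, was at 99.7 CPM in white F2, 106.3 CPM in Kaiya and 111.5 CPM in Liancheng. White F2 was 0.09 below Kaiya with an interval of -0.32 to 0.13, so no difference was detectable at this depth, while the black bulbs of the same cross had 8721 CPM and Cui Hei 12095 CPM. The members above both were miR-148a-3p, miR-148a-5p, miR-125b-3p, miR-193b-5p, miR-101-1,2-3p and miR-101-1-5p. Of these miR-101-1,2-3p had 2632 CPM in white F2 and 2100 CPM in each breed. miR-193b-5p, on 24 reads in white F2, 28 in Kaiya and 4 in Liancheng, and miR-101-1-5p were within counting error of Kaiya, the nearer breed. Of those below, miR-218-5p and miR-204-5p were within counting error of the nearer breed. miR-193b-3p was below both, at 1002 CPM in white F2, 1616 CPM in Kaiya and 1191 CPM in Liancheng. miR-222a-3p lay between, at 3558 CPM in white F2, 4441 CPM in Kaiya and 3443 CPM in Liancheng.

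By name, the keratinocyte and epithelium list showed no stable place, with 3 of 8 members above, 3 below and 2 between and a median of 0.01. Arms deposited under other names or without a number were not matched to its families, so this holds for the named members only. Over 4 other scalings 1 to 4 were above, 1 to 3 below and 3 to 5 between. miR-205b-5p was between the breeds at 75389 CPM in white F2, 90443 CPM in Kaiya and 67760 CPM in Liancheng. miR-31-5p, which rises in growing mouse hair follicles, was just above both at 38835 CPM in white F2, 36956 CPM in Kaiya and 26871 CPM in Liancheng. miR-31-3p was lowest in white F2, at 172 CPM against 279.8 CPM in Kaiya and 204.1 CPM in Liancheng. Both endothelial names, the arms of miR-126, lay between the breeds (1 above with upper-quartile scaling), as did let-7d-5p at 91963 CPM in white F2, 92672 CPM in Kaiya and 86093 CPM in Liancheng. The place of let-7d-5p next to Kaiya changed with other scalings. Of 4 neural names, miR-9-5p was above, miR-128-3p below and 2 between, but miR-9-5p was within counting error of Kaiya and between the breeds with all 5 libraries scaled together. The miR-34 and miR-449 list had 1 of 3 above and 2 between (2 above with upper-quartile scaling). The immune list, by name only both miR-146b arms, had 1 above and 1 between. Its other families are not listed by name, and arms under other names were not matched to them by sequence. miR-122, the liver list, is not listed by name.

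Of the 108 miRNAs 18 fell into 9 pairs with the same seed, and in 8 pairs both members were in the same place relative to the breeds, a number that fell to 5 with upper-quartile scaling and 6 with library size alone. miR-103-1-3p and miR-103-2-3p were both above (0.17 and 0.39 to the nearer breed), and miR-15c-1-5p and miR-15c-2-5p both below. The rare partner arm miR-15c-2-3p was also below both, at 5.02 CPM in white F2, 7.24 CPM in Kaiya and 9.20 CPM in Liancheng, but its intervals included 0 against both breeds. Copies of nearly the same sequence can exchange reads, so such pairs are not independent.

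The balance between arms does not depend on scaling. It was computed as the log2 ratio of 5p to 3p reads, with 0.5 added, for the 42 hairpins whose arms each had 50 reads or more over the 3 libraries. White F2 was outside both breeds toward the 3p arm in 17, toward the 5p arm in 12, and between them in 13. A distance of 0.5 was reached by 11 hairpins, 8 of them toward the 3p arm, and a distance of 1 by 1 (2.38%), mir-125b. Here the 3p arm made up 36.1% of the reads in white F2 (35.5% to 36.8%), 20.8% in Kaiya (20.4% to 21.3%) and 20.5% in Liancheng (19.7% to 21.3%). The log2 ratio was 0.82 in white F2, 1.93 in Kaiya and 1.96 in Liancheng. Black F2 had 1.64 and Cui Hei 2.04, so white F2 was the lowest of the 5 libraries.

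Next toward the 3p arm was mir-30e-2, with 3p arm shares of 11.1% in white F2, 5.93% in Kaiya and 6.24% in Liancheng. Its log2 ratio of 5p to 3p was 3.01 in white F2, 3.99 in Kaiya and 3.91 in Liancheng, with 3.97 in black F2 and 3.93 in Cui Hei. The other copy, mir-30e-1, lay on the same side of both breeds, by less, at 5.58 in white F2, 6.34 in Kaiya and 5.98 in Liancheng. In level, which does depend on scaling, the 3p arm of both copies was above both breeds and the 5p arm below both, but with upper-quartile scaling both 5p arms were between. miR-30e-2-3p had 1565 CPM in white F2, 1091 CPM in Kaiya and 950 CPM in Liancheng, and miR-30e-2-5p 12581 CPM in white F2, 17302 CPM in Kaiya and 14273 CPM in Liancheng. The reverse was seen for mir-31, whose log2 ratio was 7.82 in white F2, 7.04 in Kaiya and 7.04 in Liancheng. By level, 8 of the 42 hairpins had the 3p arm above and the 5p arm below both breeds and 4 the opposite, but 3 and 3 with upper-quartile scaling. Both arms were in the same place in 21. mir-193b, at -6.83 in white F2, -7.83 in Kaiya and -8.85 in Liancheng, rests on 24, 28 and 4 reads of the 5p arm.

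**Figure D4:**
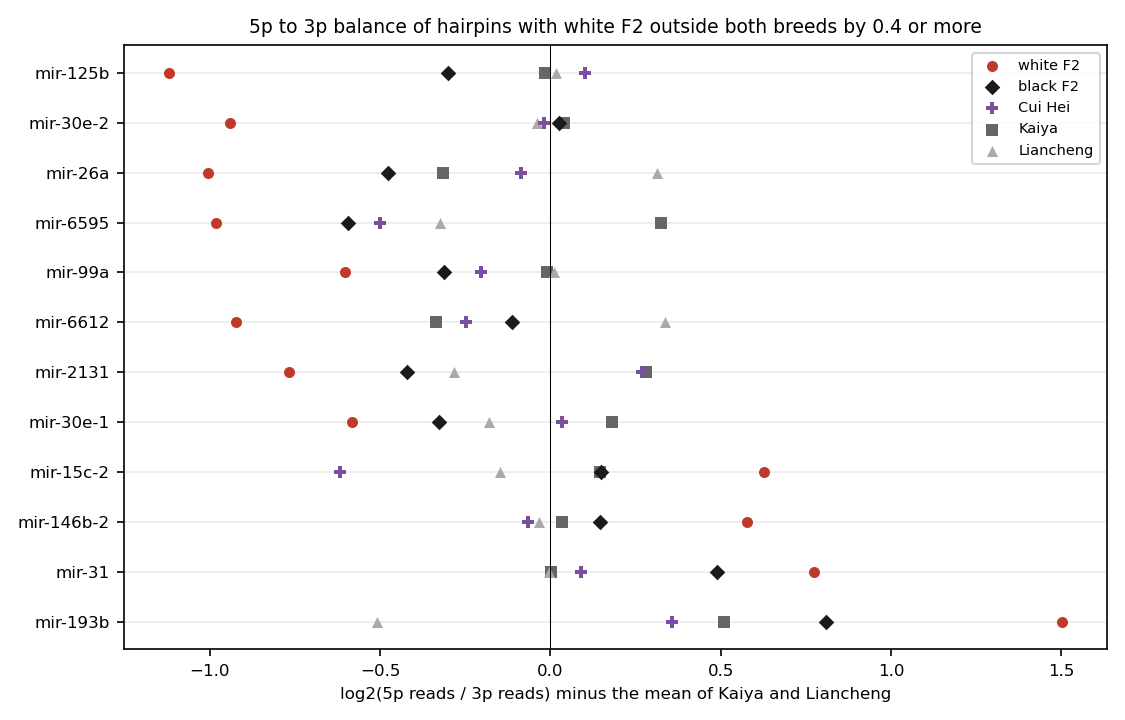
log2 ratio of 5p to 3p reads, minus the mean of Kaiya and Liancheng, for hairpins with a family number where white F2 lay outside both breeds by 0.4 or more, 1 library each. Hairpins were chosen for the white F2 distance, so its outlying place is a description, mir-125b and mir-30e-2 being farthest toward the 3p arm and mir-193b toward the 5p arm.

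Sequence features gave a further description, chosen after the values were seen. Over all 54 3p arms the median log2 ratio of white F2 to the midpoint of the breeds was 0.23, and over all 54 5p arms it was -0.06. By the last base of the listed sequence the medians were 0.36 for the 24 ending in C, -0.07 for the 21 ending in A, -0.05 for the 19 ending in G and -0.11 for the 44 ending in U. Of those ending in C, 14 lay above both breeds, 4 below and 6 between. With all 5 libraries scaled together the median of those ending in C was 0.31 in white F2, 0.06 in black F2 and 0.07 in Cui Hei, each against the same midpoint. Across the 108 miRNAs, which share the same 3 libraries, the Pearson correlation of the white F2 to midpoint ratio with GC content was 0.12 and with length -0.21. The part of the last base in the results above was not tested. miR-125b-3p, miR-30e-2-3p, miR-27b-3p, miR-27b-1,2-5p and unnumbered arm D end in C, while miR-499-5p and miR-148a-3p end in U and miR-146b-1,2-5p in G, and miR-214-5p, among the lowest, also ends in C.

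The other libraries of the series were set against the same breeds for comparison, with all 5 scaled together, and they share the Kaiya and Liancheng libraries. White F2 was outside both breeds for 67.6% of the 108 miRNAs, black F2 for 58.3% and Cui Hei for 48.1%. A distance of 0.5 was reached by 12 miRNAs in white F2, 5 in black F2 and 5 in Cui Hei, and a distance of 1 by 1 in each. Of the 14 miRNAs with the widest breed gap, white F2 was between the breeds in 11, black F2 in 6 and Cui Hei in 10. For the arms, 11 of 42 hairpins were outside by 0.5 in white F2, 3 in black F2 and 1 in Cui Hei. With 1 library each, what sets such counts (birds, pool or library) cannot be told apart.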

How the data were processed

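Per the series' design text, small RNA was sequenced on an Illumina HiSeq and analysed with miRDeep2 2.1.2. The submitters' processing notes also name FastQC and Bowtie 0.12.2. The genome build is not given in those sources. The deposited tables, per the file headers, give the authors' raw read count and CPM per mature miRNA and read counts per hairpin. The raw counts were used, and each mature name entered once, with the line of highest count where several hairpins list it. Factors came from the TMM method of edgeR 4.0.16 in R 4.3.3, used for scaling only, and the computation was checked on simulated data. The simulated counts held counting error only, with as many shifts up as down. That check therefore cannot show whether TMM suits these libraries. No test was made, since each group has 1 library. A miRNA needed at least 50 reads in the 3 libraries together, and 1 hairpin that the Kaiya table does not list was left out. Ratio intervals are exact Clopper-Pearson and level intervals exact Poisson, at 95%, and reads carry no molecular identifiers. A floor of 3 reads is 1.05 CPM in white F2, 0.703 CPM in Kaiya and 1.87 CPM in Liancheng. Named are the 10 farthest above both breeds, the 10 farthest below and the 10 widest breed gaps, each with at least 200 reads. Also named, over the 50-read minimum, are the 10 most abundant and list members at least 0.5 (log2) outside. Others were named after their values were seen. Members, lists and rules were chosen with earlier results of these data known. List members were matched by deposited name, not by sequence, so a list can lack arms deposited under other names. Alternatives were other scalings, read minimums, summed lines, the most abundant miRNA left out and, added later, hairpin totals. Black F2 and Cui Hei levels use TMM over all 5 libraries.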

Additional observations from a re-analysis of the deposited data

Results flagged for a closer look

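Hairpin reads outside the mature sequences listed for their own hairpin did not enter the comparisons of mature miRNAs under that hairpin. They made up 2.72% of the hairpin reads in white F2, 2.48% in black F2, 2.11% in Cui Hei, 1.56% in Kaiya and 1.90% in Liancheng. This share was higher than in both white breeds in white F2, and also in black F2 and Cui Hei. Of them 92698 of 93208 in white F2, 75354 of 75968 in Kaiya and 34893 of 35164 in Liancheng lay on mir-27b-1. There were 0.555 such reads per miR-27b-3p read in white F2, 0.514 in black F2, 0.477 in Cui Hei, 0.415 in Kaiya and 0.488 in Liancheng. In white F2 mir-27b-1 had 95139 reads, of which 2441 were its listed 5p arm, and no 3p arm is listed for it. Whether the remaining reads are its 3p arm, and whether they are also counted on another hairpin, was not tested.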

How the results depend on the processing

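The number of miRNAs below both breeds, 38, was 24 with upper-quartile scaling, and the cause was not tested. Hairpin totals, an alternative added after the data were seen, had 72 features in place of 108. They gave 22 above, 18 between and 4 at a white F2 to Liancheng log2 ratio of 1 in size. With fewer features a lower count need not be a lower share. The number below both breeds with hairpin totals, 32 of 72, was within 1.5 times of 38. Lower read minimums let in rarer miRNAs: the count outside both breeds by 1 was 3 with 10 reads and 4 with no minimum, and with no minimum 17 miRNAs reached 1 in size against Kaiya and 19 against Liancheng. With 10 reads per arm 2 hairpins were outside by 1, mir-449c-1 joining on 2 reads of its 3p arm in white F2. In the other 54 of 63 recomputed counts the value was within 1.5 times. Of the 108 miRNAs 73 kept their place relative to the breeds under all 5 other scalings (29 of 36 above, 24 of 38 below, 20 of 34 between), as did 13 of 14 with a breed gap of 1. Upper-quartile scaling shifted the median white F2 to Liancheng ratio by 0.22 and library size alone by -0.15. No named ratio of at least 1 in size changed sign. Leaving out a library ends the comparison, since each group has 1. No paired analysis was possible because each group has a single library. Depth limits the miRNAs under about 200 reads, and Liancheng, the shallowest library, limits most ratios.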

Other observations

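The hairpin that the Kaiya table does not list had 29.1 CPM of its 5p arm in white F2, 51.2 CPM in black F2, 92.2 CPM in Cui Hei and 89.1 CPM in Liancheng, with all 5 libraries scaled together. Its 3p arm had 0 reads in white F2 and black F2 and 1 each in Cui Hei and Liancheng. Names that rest on the same reads, to within 1 read per library, were miR-455-1,2-3p with miR-455-2-3p and miR-106-2,3-3p with miR-106-3-3p, so the 108 compared names hold 2 repeats.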
